A study of Flaveria ramosissima and Flaveria robusta and Flaveria sonorensis with 9 samples.

Results

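The genes described here had far lower transcript abundance in the C4 species Flaveria trinervia than in 3 relatives at control CO2. They were chosen by their values at control CO2, from the median of the 3 control libraries of each species. A gene was taken when its median was at least 10 TPM in F. robusta, F. sonorensis and F. ramosissima, and when its F. trinervia median was at least 0.5 TPM but at most 25% of the smallest of the other 3 medians. TPM is the read count of a transcript divided by its length, scaled to a fixed total in each library. Of 29558 unique gene IDs, 80 met the rule. At control CO2 their low level in F. trinervia is therefore a description, and only the low CO2 libraries, which the rule did not use, can test it.

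Flaveria is a genus with species along the path from C3 to C4 photosynthesis. The C4 plant was F. trinervia and the C3 plant F. robusta, and of the C3-C4 intermediates F. sonorensis is labelled Type I and F. ramosissima Type II. Mature leaves that had newly expanded were taken at control CO2 (380, in the unit written in the labels) and after 4 weeks at low CO2 (100), with light at 200 (µmol per square metre and second), 22 °C and a day of 16 h in all groups. There were thus 8 samples, 1 for each species at each CO2 level, with 3 numbered libraries each. Whether these came from separate plants was not given in the sources used here, so each p-value measures the spread between libraries, which may be technical. With 1 species per photosynthetic type, type and species cannot be told apart, and with 1 sample per CO2 level the same holds for CO2 level and growth run.

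In C3 leaves Rubisco fixes CO2 directly in the mesophyll, and the photorespiratory pathway recycles the product that Rubisco makes with oxygen. C4 leaves first capture CO2 in the mesophyll with phosphoenolpyruvate carboxylase and release it around Rubisco in the bundle sheath, which keeps photorespiration low. Transcripts of photorespiratory enzymes are known to be less abundant in leaves of C4 than of C3 Flaveria. Low CO2 raises photorespiration in C3 leaves. The IDs of the table carry no gene names (0 of them did), so it cannot be said which of the 80 genes belong to these pathways. The leaf label could not be checked against marker genes for the same reason. Only 4 IDs are printed, and other genes are described by their rank.

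Reads of each species were aligned to that species' own genome sequence, and how genes of different species came to share a row was not given in the sources used here. A low value in F. trinervia can therefore be less RNA or a row that holds another copy of the gene there, and these cannot be told apart. Values of near-identical gene copies are uncertain. Depth is unknown, because TPM keeps no read counts. The F. ramosissima control libraries were the most unlike each other, with a lowest rank correlation of 0.893 between 2 of them against 0.961 or more in the other 7 samples.

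At control CO2 the 80 genes spanned a wide range of abundance. Their median was 71.8 TPM in F. robusta, 54.9 TPM in F. sonorensis and 61.7 TPM in F. ramosissima, against 4.14 TPM in F. trinervia. The highest reached 20732 TPM in F. robusta, 23155 TPM in F. sonorensis and 2061 TPM in F. ramosissima, while the highest F. trinervia median was 153 TPM. In F. robusta 29 of the genes were at 100 TPM or more. In F. trinervia 1 gene was, and 10 genes were under 1 TPM. By F. robusta abundance, 5 of the 80 were among its top 100 genes and 33 among its top 1000.

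**Figure D1:**
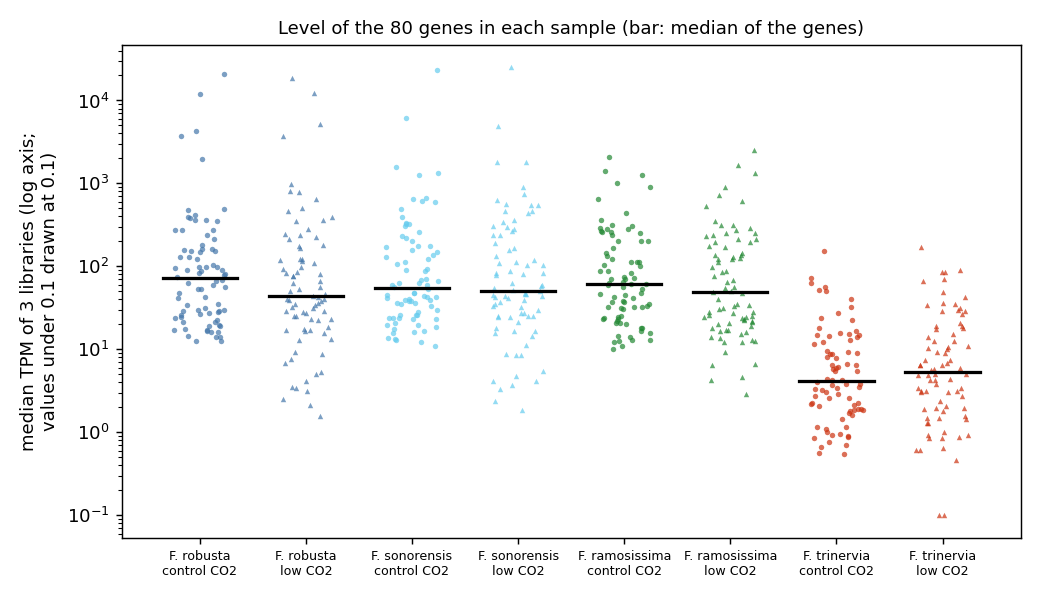
Transcript abundance of the 80 genes in each of the 8 samples. Each point is the median TPM of 3 libraries for 1 gene on a log axis, circles are control CO2, triangles are low CO2, and bars give the median of the genes (71.8 TPM in F. robusta and 4.14 TPM in F. trinervia at control CO2). The F. trinervia medians are the lowest at both CO2 levels, and its low CO2 sample holds the only genes drawn at the 0.1 TPM limit of the axis.

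Together the genes took 5.41% ± 0.34 (SD, n = 3 libraries) of the listed TPM in F. robusta at control CO2. The share was 4.93% ± 0.18 in F. sonorensis, 1.60% ± 0.09 in F. ramosissima and 0.120% ± 0.029 in F. trinervia. A single pair of genes, named below, made up 64.3% of this share in F. robusta and 68.4% in F. sonorensis, but 24.7% in F. ramosissima. Without that pair the shares were 1.94% in F. robusta, 1.55% in F. sonorensis, 1.2% in F. ramosissima and 0.119% in F. trinervia. At low CO2 the share of all 80 genes was 5.36% ± 0.50 (F. robusta), 5.21% ± 0.39 (F. sonorensis), 1.62% ± 0.07 (F. ramosissima) and 0.144% ± 0.018 (F. trinervia). Each of these means moved by less than 2 SD of its control libraries.

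The depth of the reduction differed among the genes. Relative to the smallest of the other 3 medians, the F. trinervia median was 14.7% for the middle gene, and the quartiles were 8.08% and 19.2%. It was at most 10% in 24 genes and at most 5% in 11 genes, and it was over 20% in 19 genes. The genes nearest the limit of 25% lay at 24.9% inside and 25.1% outside. At the floor of the rule, the nearest F. trinervia medians were 0.55 TPM inside and 0.41 TPM outside. At the minimum for the other species, the nearest values were 10.1 TPM inside and 9.88 TPM outside.

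The floor leaves out genes that were still lower in F. trinervia. A further 74 genes met all other parts of the rule with an F. trinervia control median under 0.5 TPM, and for 63 of them the median is listed at 0. At low CO2, 3 of the 74 had an F. trinervia median of 0.5 TPM or more, and the highest was 2.56 TPM.

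The libraries of F. trinervia were not alike. Control library 1 was the highest of the 3 for 51 of the 80 genes (63.8%), against 53.3% of all genes tested in that species. It was above 25% of the smallest other median in 23 of the 80 genes, where library 2 was above it in 4 and library 3 in 5. All 3 F. trinervia control libraries lay below all 9 libraries of the other species in 68 of the 80 genes, or 85.0%, as the rule favours. Among the 3126 genes with at least 10 TPM in the other species this share was 13.8%. The rule gave 82 genes without library 1, 61 without library 2 and 71 without library 3. The median coefficient of variation over 3 libraries was 37.5% in F. trinervia, 44.6% in F. ramosissima, 16.4% in F. robusta and 15% in F. sonorensis at control CO2.

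The same rule was applied with each other species in the place of F. trinervia, as a description with no test. It gave 81 genes for F. robusta, 53 for F. sonorensis and 209 for F. ramosissima. Out of the genes with at least 10 TPM in the other 3 species, these were 2.56% for F. trinervia, 2.52% for F. robusta, 1.69% for F. sonorensis and 5.53% for F. ramosissima. The ranking of the species by these counts depended on the floor and on scaling. With no floor there were 154 genes for F. trinervia, 171 for F. robusta, 277 for F. sonorensis and 259 for F. ramosissima. After median-ratio scaling of the libraries, the full rule gave 81, 69, 114 and 65 genes in that order of species.

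Whether the low level held at low CO2 was tested in the 12 low CO2 libraries, with limma on log2(TPM + 1). In that fit all 80 genes passed the minimum mean of 1 TPM. At low CO2, F. trinervia was lower than each of the other 3 species in 63 of the 80 genes, with an adjusted p (Benjamini-Hochberg) below 0.05 in all 3 contrasts. This was 78.8% of them, where 6.33% of the 17414 genes tested were called in this way. Among the 3126 genes with control medians of at least 10 TPM in the other 3 species, 13.5% were called. All 3 F. trinervia libraries lay below all 9 others in 62 of the 80, against 7.09% of all genes tested and 14.4% of those 3126.

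Taken 1 species at a time, F. trinervia was lower than F. robusta in 66 genes (82.5%, against 26.6% of all genes), lower than F. sonorensis in 67 (83.8%, against 44.7%) and lower than F. ramosissima in 76 (95.0%, against 29.2%). The median difference of the 80 genes was -2.78 (log2) from F. robusta, -3.17 from F. sonorensis and -2.80 from F. ramosissima. Over all genes tested the medians were 0.03, -0.26 and 0.42. The genes chosen by the same rule for another species were called lower at low CO2 in 74 of 81 for F. robusta, 52 of 53 for F. sonorensis and 201 of 209 for F. ramosissima. The F. trinervia set had the lowest of these shares, and the difference between the shares was not tested. For the other species the share of all genes called lower was not calculated, so no base rate stands beside these values. The full rule was met again at low CO2 by 52.5% of the F. trinervia set and 51.9% of the F. robusta set. It was met by 67.9% of the F. sonorensis set and 67.0% of the F. ramosissima set.

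In size the reduction spread out at low CO2. The F. trinervia median was at most 25% of the smallest other median in 47 genes, between 25% and 50% in 17, between 50% and 100% in 6 and above it in 10. Its middle value was 17.1% (quartiles 10.1% and 40.4%). The full rule, applied to the low CO2 medians, was met by 42 of the 80 and by 21 other genes. Of these 21, 9 had failed the 25% limit at control CO2, 8 the minimum of 10 TPM and 4 the floor.

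**Figure D2:**
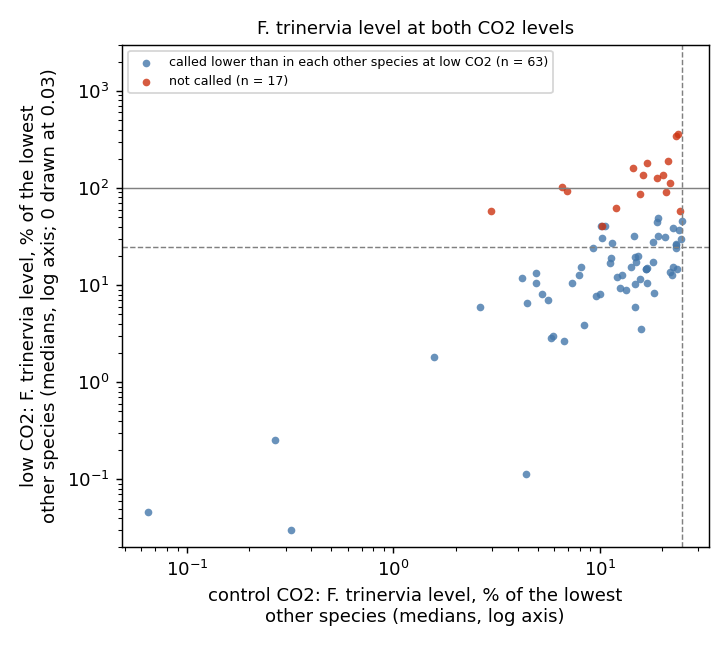
F. trinervia level as a percent of the lowest other species at control CO2 (horizontal) and at low CO2 (vertical), both on log axes, with 1 point per gene and dashed lines at 25%. Blue points are the 63 genes called lower than in each other species at low CO2 by limma, and red points are the 17 others, of which 10 lie above the solid line at 100%, and a value of 0 is drawn near the lower edge.

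The calls are also given by the abundance of the gene in the other species, with no test between classes. Of the 19 genes with at least 100 TPM in each of the other 3 species at control CO2, 18 were called at low CO2, against 17.0% of all genes at that level. Of the 24 genes between 30 and 100 TPM, 20 were called (against 14.9%), and of the 37 between 10 and 30 TPM, 25 (against 12.1%). The share called was thus lowest in the least abundant class, for the 80 genes and for all genes alike. Among the 17 genes not called, the contrast missed the threshold against F. robusta in 14, against F. sonorensis in 13 and against F. ramosissima in 4. In 4 of the 17, F. trinervia was called higher than at least 1 of the other species.

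On the log2(TPM + 1) scale, the deepest reductions at low CO2 were in 2 genes that are among the most abundant of the leaf in C3 F. robusta. Gene08581 was 5th in abundance there and Gene00282 was 9th. Both were picked by their F. trinervia difference at low CO2. The p-values given for it below come from the same libraries and are no independent test. As a percent of the smallest other median at low CO2, Gene08581 was at 0.0462% and Gene00282 at 0.252%, while 1 gene was listed at 0 in F. trinervia and another was at 0.115%, with 0.03, 0.04 and 0.11 TPM in the F. trinervia libraries.

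Gene08581 was at 18614, 22389 and 20732 TPM in the control libraries of F. robusta and at 21474, 24921 and 23155 TPM in those of F. sonorensis. In F. ramosissima it was at 892, 1431 and 1457 TPM, and in F. trinervia at 6.56, 0.93 and 0.72 TPM. The species fell into 3 steps with no overlap, and within F. trinervia library 1 stood above the other 2. At low CO2 the values were 15244, 18728 and 20742 TPM in F. robusta, 22560, 25277 and 28604 TPM in F. sonorensis, 1256, 1751 and 1322 TPM in F. ramosissima, and 2.33, 0.61 and 0.57 TPM in F. trinervia. The C3 and Type I libraries no longer overlapped each other, and in all 4 species the low CO2 libraries overlapped those at control CO2.

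For Gene08581, the limma difference of F. trinervia at low CO2 was -13.12 (log2(TPM + 1), SE 0.26, adjusted p = 2.39e-12) from F. robusta, -13.61 (adjusted p = 1.48e-12) from F. sonorensis and -9.46 (adjusted p = 1.49e-11) from F. ramosissima. F. ramosissima was itself lower than F. robusta (-3.66, adjusted p = 9.66e-08) and F. sonorensis (-4.15, adjusted p = 2.18e-08). The difference of 0.49 between F. sonorensis and F. robusta did not pass the threshold (adjusted p = 0.12), but it did after quantile normalization (1.04, adjusted p = 0.00319), and it was -0.39 with median-ratio scaling (adjusted p = 0.298).

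Gene00282 had a different level in each species as deposited. It was at 12211, 11960 and 10288 TPM in F. robusta at control CO2, at 5065, 7033 and 6109 TPM in F. sonorensis, at 2061, 3064 and 1948 TPM in F. ramosissima, and at 9.24, 4.90 and 5.52 TPM in F. trinervia. No libraries of different species overlapped. At low CO2 it was at 11585, 12288 and 13459 TPM, 4665, 6176 and 4918 TPM, 2051, 3089 and 2542 TPM, and 5.39, 8.07 and 6.40 TPM in the same order of species. F. trinervia was lower than F. ramosissima, the nearest species on the deposited scale, with a difference of -8.39 (log2(TPM + 1), SE 0.17, limma adjusted p = 1.29e-12). Between F. sonorensis and F. robusta the difference was -1.25 (adjusted p = 4.2e-05), and between F. ramosissima and F. sonorensis it was -1.05 (adjusted p = 0.000123). The last of these turned round with median-ratio scaling (0.58, adjusted p = 0.0286), which made F. sonorensis the nearest species, at -8.78 from F. trinervia. It was -1.66 after quantile normalization.

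**Figure D3:**
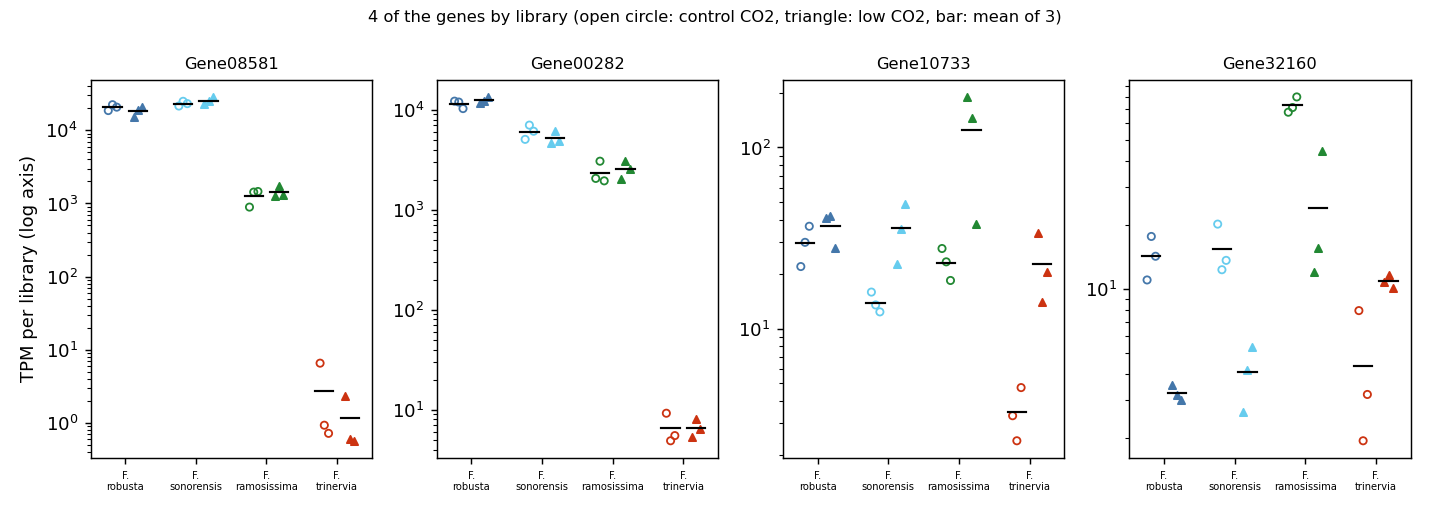
TPM per library of 4 of the genes on log axes, with a panel for each gene. Open circles are control CO2, triangles are low CO2, and bars are means of 3 libraries. Gene08581 and Gene00282 stay under 10 TPM in all 6 F. trinervia libraries, while Gene10733 and Gene32160 have higher F. trinervia values at low CO2 than at control CO2.

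Other abundant genes of the set were reduced less steeply. The gene that ranked 3rd of the 80 in F. robusta was at 3200, 4274 and 4393 TPM there at control CO2, at 625, 346 and 392 TPM in F. sonorensis, at 504, 178 and 362 TPM in F. ramosissima and at 61.5, 33.3 and 41.0 TPM in F. trinervia. Its high level was thus in F. robusta, with the 2 C3-C4 species overlapping each other and F. trinervia below all of them. At low CO2 it was at 86.3, 50.2 and 66.2 TPM in F. trinervia, and its difference from F. ramosissima was -2.45 (log2, SE 0.18, limma adjusted p = 1.53e-07).

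The 4th gene by F. robusta level changed at low CO2 in the C3 and Type I species. It was at 2955, 3897 and 3716 TPM at control CO2 and at 4210, 5208 and 6267 TPM at low CO2 in F. robusta, where it rose by 0.56 (log2, SE 0.18, limma adjusted p = 0.0432). In F. sonorensis it rose by 0.47 (SE 0.11, adjusted p = 0.0152), from 1273, 1398 and 1229 TPM to 1932, 1826 and 1663 TPM. In F. ramosissima the values were 904, 696 and 999 TPM and then 1659, 1713 and 1451 TPM, with no overlap but an adjusted p of 0.275. In F. trinervia they were 153, 185 and 139 TPM and then 135, 202 and 173 TPM, and overlapped.

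The gene that ranked 15th was listed at 0 in all 3 low CO2 libraries of F. trinervia, and at 1.41, 0.76 and 0 TPM in its control libraries. In the other species the low CO2 libraries held 205, 225 and 275 TPM (F. robusta), 738, 745 and 954 TPM (F. sonorensis) and 218, 253 and 254 TPM (F. ramosissima). No fold change is given against a value listed at 0.

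The other 3 species were next compared with each other, since the rule did not order them. At control CO2 the highest of the 3 medians was in F. sonorensis for 32 genes, in F. robusta for 30 and in F. ramosissima for 18. The lowest was in F. ramosissima for 34 genes, in F. robusta for 25 and in F. sonorensis for 21. The highest was less than 2-fold above the lowest in 28 genes and more than 4-fold above it in 22, with a median of 2.50-fold. A stepwise order from high to low that ran from F. robusta over F. sonorensis and F. ramosissima to F. trinervia was seen in 17 of the 80 genes at control CO2 and in 11 at low CO2. The lowest of the 3 was the same species at both CO2 levels in 49 genes. This order was a matter of scaling too. With median-ratio scaling the highest control median was in F. ramosissima for 53 genes and the lowest in F. sonorensis for 60, and the stepwise order was seen in 5.

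At low CO2, F. sonorensis was higher than F. robusta in 28 of the 80 genes (35%, against 50.3% of all genes) and lower in 17 (21.2%, against 19.6%). F. ramosissima was higher than F. robusta in 23 (28.8%, against 33.1%) and lower in 28 (35%, against 43.4%), and it was higher than F. sonorensis in 20 (25%, against 28.6%) and lower in 29 (36.2%, against 57.7%), all by limma. These shares were near those of all genes or below them. The directions depended on scaling. Median-ratio scaling of the libraries moved the median difference of all genes between F. ramosissima and F. sonorensis by 1.36 (log2) and that between F. sonorensis and F. robusta by -0.47. With it, F. sonorensis was higher than F. robusta in 11 genes and lower in 39, and F. ramosissima was higher than F. robusta in 41 and lower in 17, and higher than F. sonorensis in 60 and lower in 3. After quantile normalization these pairs were 19 and 29, 19 and 33, and 25 and 28. The 63 genes called lower in F. trinervia depended little on it, as 61 of them were called with median-ratio scaling and 62 with quantile normalization.

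The low CO2 change was examined within each species, by a limma test of 3 low CO2 against 3 control libraries. The control libraries also chose the genes, which favours a fall in the other 3 species and a rise in F. trinervia, so the counts below are no independent test. In F. robusta 18 of the 80 genes rose (22.5%, against 12.5% of all genes tested) and 28 fell (35%, against 18.9%). In F. sonorensis 23 rose (28.8%, against 9.95%) and 22 fell (27.5%, against 15.6%). Without 1 library, which also leaves the test less able to call genes, there were 11 to 17 rises in F. robusta and 14 to 24 in F. sonorensis. The lowest counts came without low CO2 library 2 in F. robusta and without control library 3 in F. sonorensis. In F. trinervia 73 of the 80 passed the minimum mean of 1 TPM, of which 9 rose (12.3%, against 9.28%) and 3 fell (4.11%, against 10.9%). The median change was -0.03 (log2) in F. robusta, 0.03 in F. sonorensis, 0.09 in F. ramosissima and 0.19 in F. trinervia. Over all genes it lay between -0.08 and 0.01.

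In F. ramosissima 0 of the 80 genes were called higher or lower by limma, against 0.0256% of all genes called higher and 0% called lower. With so few calls over all genes, this does not show that the 80 genes were unchanged. At an unadjusted p below 0.05 there were 9 of the 80 higher (against 4.51% of 15638 genes) and 12 lower (against 6.58%). Its low CO2 libraries lay above all control libraries in 14 of the 80 genes (17.5%, against 7.90%) and below them in 13 (16.2%, against 10.6%).

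**Figure D4:**
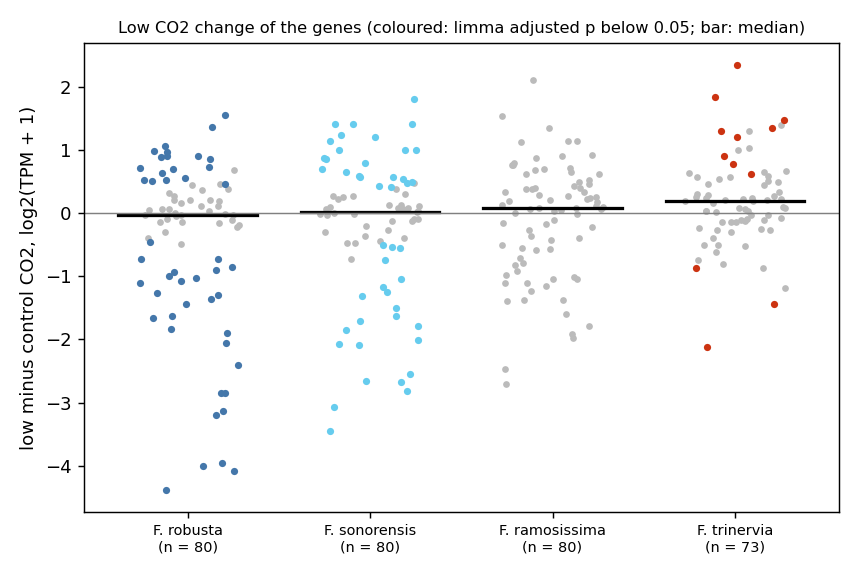
Low minus control CO2 difference of each gene on the log2(TPM + 1) scale, within each species. Coloured points passed an adjusted p of 0.05 in limma (46 in F. robusta, 45 in F. sonorensis, 0 in F. ramosissima and 12 in F. trinervia), grey points did not, and bars are medians of the genes. The F. robusta and F. sonorensis points reach further below 0 than above it.

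Most genes called in both F. robusta and F. sonorensis changed in the same direction, within the set and over all genes. Over all genes 807 fell in both species, 470 rose in both and 134 were called in opposite directions. Of the 80 genes, 20 fell in both (25%, against 7.37% of the 10945 genes tested in both) and 10 rose (12.5%, against 4.29%). Among the 80, 0 were called in opposite directions (against 1.22%). The control libraries of both species had chosen the genes, so these counts are not independent of the rule.

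The 20 genes that fell in both F. robusta and F. sonorensis had a median change of -1.64 (log2) in the former and -1.82 in the latter. Their median in F. ramosissima was -1.07. In F. trinervia 19 of them were tested, with a median of -0.03, and 3 fell and 2 rose. Their F. trinervia median went from 15% of the smallest other median at control CO2 to 74.1% at low CO2, taking the middle gene of the 20. In 8 of them it was above the smallest other median at low CO2, and in 9 F. trinervia was still called lower than each of the other species. For the 10 genes that rose in both species, the medians were 0.82 in F. robusta, 1.01 in F. sonorensis, 0.92 in F. ramosissima and 0.31 in F. trinervia, where 4 rose and 0 fell. All 10 were called lower in F. trinervia than in each other species at low CO2, and their middle share was 13.2% against 18.1% at control CO2. Both sets were picked by their change in F. robusta and F. sonorensis, which help to set the smallest other median. The pick thus favours a higher share at low CO2 in the 20 genes and a lower share in the 10 genes.

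The 10 genes whose F. trinervia median passed the smallest other one at low CO2 had that smallest median in F. robusta (5 genes), F. sonorensis (3) or F. ramosissima (2). That species had dropped to between 3.96% and 38.8% of its control median in each of the 10, with a middle value of 15.4%. The F. trinervia median at low CO2 was between 96.6% and 337% of its control value. In 9 of the 10 it was above only 1 of the other species, in 1 above 2 of them, and in 0 above all 3. The drop of the lowest species is not independent of how these genes were picked. The rule had set F. trinervia far below each other species at control CO2, and its own changes were too small to close that gap. A gene could thus enter this group only if the species that F. trinervia passed had fallen.

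An abundant example was the gene that ranked 12th of the 80 in F. robusta. It fell there from 447, 295 and 367 TPM to 32.5, 44.6 and 46.3 TPM (-3.13 log2, SE 0.19, limma adjusted p = 6.69e-05). In F. sonorensis it fell from 310, 159 and 146 TPM to 23.2, 11 and 18.2 TPM (-3.45, SE 0.33, adjusted p = 0.000429). In F. trinervia it rose from 14.9, 15.2 and 4.84 TPM to 29.8, 25.9 and 29.2 TPM (1.35, SE 0.37, adjusted p = 0.0415). The F. ramosissima libraries went from 103, 72.3 and 110 TPM to 31.0, 61.0 and 48.4 TPM, without overlap, at an adjusted p of 0.348. At low CO2 the F. trinervia level was above that of F. sonorensis by 0.72 (adjusted p = 0.0373) while its difference from F. ramosissima was -0.66 (adjusted p = 0.0487). From F. robusta the limma difference was -0.51 (adjusted p = 0.136). It was -0.74 with median-ratio scaling (adjusted p = 0.0357) and -0.69 after quantile normalization (adjusted p = 0.0342). The rise of this gene in F. trinervia was not examined in fits without single libraries.

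The gene that ranked 17th fell in F. trinervia along with F. robusta and F. sonorensis. It was at 289, 224 and 238 TPM at control CO2 and at 17.5, 17 and 11.6 TPM at low CO2 in F. robusta (-3.95 log2, SE 0.18, limma adjusted p = 6.01e-05). In F. trinervia it was at 16.7, 3.72 and 5.53 TPM and then at 0.85, 0.99 and 0.83 TPM (-2.11, SE 0.44, adjusted p = 0.0153). It also fell in F. sonorensis (-2.67, adjusted p = 0.00248). In F. ramosissima it did not pass the threshold, as the smallest limma adjusted p of the 80 genes there was 0.23. The low CO2 libraries lay below all control libraries in each of the 4 species, as they did in 3 of the 80 genes and in 2.73% of all genes tested in the 4 species.

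By the difference of log2 medians, Gene10733 and Gene32160 had the largest rises at low CO2 in F. trinervia among the 15 genes whose low CO2 libraries all lay above the control ones (against 19.5% of all genes tested there). Both were picked by this rise, so the p-values given for it come from the libraries that picked them. They are no independent test of the rise. Gene10733 was at 3.30, 2.40 and 4.72 TPM in F. trinervia at control CO2 and at 33.9, 14 and 20.6 TPM at low CO2, a rise of 2.36 (log2, SE 0.32, limma adjusted p = 0.00361). Its F. sonorensis libraries went from 15.9, 13.5 and 12.4 TPM to 22.8, 35.3 and 48.9 TPM (1.24, SE 0.25, adjusted p = 0.00845). In F. ramosissima they went from 27.7, 23.4 and 18.4 TPM to 190, 145 and 37.8 TPM (2.11, SE 0.59, adjusted p = 0.306), without overlap, and in F. robusta from 22.0, 29.9 and 36.7 TPM to 40.8, 41.8 and 28 TPM, with overlap. At low CO2 the difference of F. trinervia from F. ramosissima was -2.20 (adjusted p = 0.00244), while those from F. robusta (-0.73, adjusted p = 0.26) and F. sonorensis (-0.65, adjusted p = 0.318) did not pass the threshold.

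Gene32160 went the opposite way in F. trinervia from the other species. It was at 11, 17.7 and 14.3 TPM in F. robusta at control CO2 and at 3.55, 3.17 and 3.01 TPM at low CO2 (-1.83 log2, SE 0.18, limma adjusted p = 0.000357), and it fell from 20.2, 12.3 and 13.6 TPM to 2.66, 4.17 and 5.35 TPM in F. sonorensis (-1.70, SE 0.24, adjusted p = 0.00225). The F. ramosissima values of 67.6, 71.1 and 79.7 TPM and 12, 15.5 and 44.5 TPM did not overlap (adjusted p = 0.292). In F. trinervia it went from 7.92, 1.94 and 3.20 TPM to 10.8, 11.7 and 10.1 TPM (1.3, SE 0.37, adjusted p = 0.0437). That call was lost when any 1 of 5 of the 6 F. trinervia libraries was left out, control library 1 being the exception (adjusted p between 0.0961 and 0.122). At low CO2 F. trinervia was above F. robusta by 1.48 (adjusted p = 0.00437) and above F. sonorensis by 1.26 (adjusted p = 0.0103), and the difference of -0.85 from F. ramosissima had an adjusted p of 0.0556, or 0.00041 with median-ratio scaling (-1.79) and 0.0126 after quantile normalization (-0.98).

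The number of changed genes in F. trinervia depended on single libraries and on the fit. The 9 rises and 3 falls were 5 and 1 without low CO2 library 3 and 13 and 3 without control library 1, which was the highest of its sample for most genes.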

How the data were processed

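mRNA-seq was performed on leaves of 4 Flaveria species at 2 CO2 levels. The authors used STAR to align each species' reads to its own genome and deposited TPM values estimated with RSEM, per the methods stated for RNA-seq of these species. Conditions of growth were taken from the labels, since the methods describe different ones and no low CO2 treatment. edgeR is also listed in the submitters' notes, in a role not given in the sources used here. Columns were assigned by the sample code in the labels. All 24 were used, and 0 were left over. Of 29566 rows, 8 were left out because their 4 IDs occur more than once. The columns sum to 85.9% to 92.6% of the TPM total, and the values were not rescaled.

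The genes and tests were chosen with earlier results of these data known. Differences were tested on log2(TPM + 1) by two-sided limma 3.58.1 tests in R 4.3.3, moderated along a mean-variance trend. The pseudocount of 1 understates changes of low genes. The first fit used the 12 low CO2 libraries with 1 mean per species, and the others used the 6 libraries of 1 species. Genes whose mean reached 1 TPM in the libraries fitted were tested, p-values were adjusted over all of them by the Benjamini-Hochberg method, and the threshold was 0.05. The scripts were tested on simulated data.

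Gene IDs were printed only for the 2 genes with the largest log2(TPM + 1) deficit of F. trinervia at low CO2 against the nearest species, and the 2 with the largest rise of the log2 median in F. trinervia at low CO2 without overlap of libraries. Genes given by rank were chosen after their values were seen. Alternatives covered the rule, the pseudocount, the minimum TPM, scaling, the variance trend, a replicate block and fits without each library. The scaling of the species order, and the scaling and floor of the rule for each other species, were added after seeing the data. The long-read F. ramosissima sample of mixed organs was not used here.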

Additional observations from a re-analysis of the deposited data

Results flagged for a closer look

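In some of the 80 genes all 3 low CO2 libraries moved one way from the control libraries in F. trinervia and all 3 moved the opposite way in another species. They lay above the control libraries in F. trinervia and below them in F. robusta in 3 genes. The same was seen in 3 genes for F. sonorensis and in 3 genes for F. ramosissima. Each count was 4.11% of the 73 genes of the set tested in F. trinervia. Over all genes tested in both species the shares were 2.76%, 2.13% and 0.736%, in that order. The reverse, below in F. trinervia and above in the other species, was seen in 2 genes for F. robusta, 1 for F. sonorensis and 1 for F. ramosissima. These include genes under the minimum mean of 1 TPM in F. trinervia. Among the 73 genes tested there, the counts were 0 for F. robusta (against 1.76% of all genes tested in both), 1 for F. sonorensis (against 1.29%) and 0 for F. ramosissima (against 0.331%). The difference between species was not tested, because the control libraries had chosen the genes. Beside these, the F. trinervia libraries lay above in 8 genes together with F. robusta (7.94% of all genes), in 8 with F. sonorensis (8.00%) and in 5 with F. ramosissima (4.17%).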

How the results depend on the processing

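The count of 63 genes called lower in F. trinervia at low CO2 ranged from 61 to 63 over the other settings and from 55 to 67 over the fits or choices without 1 library. The number of genes followed the rule itself. It was 214 when the limit was the smallest other median divided by 2 in place of 4, 34 when divided by 8, 154 with no floor, and 61 to 85 without 1 control library. With the mean in place of the median it was 69, of which 61 were among the 80, and median-ratio scaling gave 81, of which 54 were. Without F. ramosissima control library 3 it was 85, of which 67 were called at low CO2.

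Library numbers did not pair the samples in general (same-number correlations between -0.274 and 0.299, over 0.1 in 4 of 30 pairs). The highest were between control and low CO2 in F. trinervia, at 0.299 for library 2 and 0.233 for library 1, with -0.015 for library 3. Some pairing within F. trinervia can therefore not be excluded. The same number was the best match in 12 of the 30 pairs. At low CO2 this held for all 3 numbers between F. ramosissima and F. robusta, and between F. ramosissima and F. trinervia. Their correlations lay between 0.060 and 0.097, and pairing there can likewise not be excluded. With the replicate block the low CO2 fit still called 63 genes lower in F. trinervia. The replicate block gave 20 changed genes in F. trinervia, 15 higher and 5 lower, in place of 12, and changed no other count by over 1.5 times. Without 1 library this count ranged from 6 to 16, and the counts were 37 to 43 in F. robusta, 31 to 45 in F. sonorensis and 0 to 0 in F. ramosissima. The differences among the other 3 species were called in 41 to 47, 49 to 53 and 45 to 52 genes without 1 library, in the order given in the report. With no minimum TPM the rise of Gene32160 in F. trinervia had a limma adjusted p of 0.0591. Depth is unknown, so the precision of single low values could not be judged.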
